A study of Homo sapiens with 12 samples.

Results

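The 10 synaptic vesicle and active zone genes SYP, SYN1, AP3B2, NSG2, BSN, UNC13A, STX1A, SNAP25, CPLX1 and SYT4 were followed through RNA sequencing of the human Ewing sarcoma line TC-71. They were found by matching their symbols in the deposited table of normalised read counts, which gave 11 of its 78885 entries. All 10 genes had an entry among the 14225 named entries with a mean of at least 10 normalised counts, and the remaining entry, a short one inside AP3B2 (GSHG0148130), was at 0 in all 12 libraries. The genes were chosen with results of the DHX9 knockdown in these libraries known, so their values in siDHX9 and scrambled libraries are given as a description with no test. Each gene was tested in YK-4-279 against DMSO libraries, a contrast in which they had not been named.

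The study asked how TC-71 cells respond to YK-4-279, a small molecule made to keep the fusion protein EWS-FLI1 from binding the RNA helicase DHX9, and to a lowered level of DHX9 itself. The 12 libraries formed 4 groups of 3: cells given YK-4-279, cells given its solvent DMSO, cells transfected against DHX9 (siDHX9) and cells transfected with a scrambled control. The drug dose is labelled 2 mM, drug and solvent were applied for 16 h, and transfected cells were harvested at 48 h after reverse transfection in 2 pulses with Lipofectamine RNAiMAX. The labels' protocol speaks of siRNAs and the design text of shRNAs, and the drug and DMSO cells had no transfection. The labels state 3 biological replicates of each group, all of the same line, so replicate spread is spread between its cultures.

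Neurons store transmitter in synaptic vesicles and release it at the active zone, a protein scaffold that holds vesicles next to calcium channels. Release needs the SNARE proteins, which pull the vesicle and plasma membranes together, priming factors that bring SNAREs into a ready state, and synaptotagmins, which bind calcium. Many of these genes are held low outside neurons by the repressor REST, which binds the RE1 element. Ewing sarcoma cells are known to express some neural genes, and synaptophysin staining is found in part of these tumours.

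Promoter windows were read from the RefSeq promoter table (build GRCh38.p14), which held 7 of the 10 genes: SYP, BSN, AP3B2, UNC13A, SYT4, STX1A and SYN1. The 5 windows below are those of SYP and AP3B2, which passed the test with YK-4-279, of BSN and UNC13A, the active zone genes, and of SYN1, whose levels differed least between siDHX9 and scrambled libraries. Each runs 5′ to 3′ on the strand of the gene, from 250 bases before the annotated start to 20 bases after it. Capitals mark matches on either strand to the GC box GGGCGG, the left part of RE1 (TCAGCACC), the right part of RE1 (GGACAGCG) and the cyclic AMP response element TGACGTCA, and no match overlapped another. The windows lie at chrX:49200174-49200443 (minus strand) for SYP, chr15:82709856-82710125 (minus strand) for AP3B2, chr3:49554227-49554496 (plus strand) for BSN, chr19:17688335-17688604 (minus strand) for UNC13A and chrX:47619838-47620107 (minus strand) for SYN1.
SYP: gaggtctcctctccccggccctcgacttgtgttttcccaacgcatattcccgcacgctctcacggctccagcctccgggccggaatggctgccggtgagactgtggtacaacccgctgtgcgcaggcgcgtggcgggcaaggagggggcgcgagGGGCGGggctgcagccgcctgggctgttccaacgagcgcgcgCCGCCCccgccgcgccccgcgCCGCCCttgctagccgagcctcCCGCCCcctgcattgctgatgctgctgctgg
AP3B2: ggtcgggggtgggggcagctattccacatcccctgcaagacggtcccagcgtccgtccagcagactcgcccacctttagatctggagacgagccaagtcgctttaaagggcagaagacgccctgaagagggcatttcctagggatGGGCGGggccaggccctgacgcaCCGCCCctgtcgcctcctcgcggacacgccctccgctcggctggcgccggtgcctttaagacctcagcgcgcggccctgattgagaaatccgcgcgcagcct
BSN: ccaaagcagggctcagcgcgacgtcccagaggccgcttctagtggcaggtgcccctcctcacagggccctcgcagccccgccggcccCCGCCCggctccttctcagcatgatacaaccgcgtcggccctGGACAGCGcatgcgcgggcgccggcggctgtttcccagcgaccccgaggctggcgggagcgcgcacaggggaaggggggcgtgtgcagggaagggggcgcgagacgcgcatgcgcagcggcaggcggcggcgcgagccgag
UNC13A: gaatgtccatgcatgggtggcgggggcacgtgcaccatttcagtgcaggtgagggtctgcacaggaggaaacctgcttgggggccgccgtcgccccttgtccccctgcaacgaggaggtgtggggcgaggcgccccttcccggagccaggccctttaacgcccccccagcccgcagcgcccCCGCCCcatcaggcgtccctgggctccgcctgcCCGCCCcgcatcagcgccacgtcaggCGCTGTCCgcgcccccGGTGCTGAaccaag
SYN1: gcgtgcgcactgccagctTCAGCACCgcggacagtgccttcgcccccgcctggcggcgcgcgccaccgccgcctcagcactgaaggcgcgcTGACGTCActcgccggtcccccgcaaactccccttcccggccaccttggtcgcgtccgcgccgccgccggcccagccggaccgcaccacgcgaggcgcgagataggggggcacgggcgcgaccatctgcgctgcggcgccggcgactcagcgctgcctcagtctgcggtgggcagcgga

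The search covered windows of 300 bases, 50 of them after the start, in the 7 genes and in 27305 promoters of the same length. UNC13A held both parts of RE1, each on the strand opposite to the gene, with the match to the right part beginning 10 bases before the start and that to the left part 7 bases after it. BSN held the right part, 121 bases before the start, and SYN1 and SYT4 held the left part, 232 and 82 bases before it. In SYN1 the left part is closely followed by GGACAGTG, a near variant of the right part that the search did not count. Of all promoters 1.7% held the left part and 1.72% the right part. The GC box was in SYP, with 4 matches, and in AP3B2, BSN, STX1A and UNC13A, against 44.6% of all promoters. Those windows held 66.3 to 79.3% G and C, beside a median of 58.3% over all promoters. SYN1 (75.3%) and SYT4 (53.3%) had no GC box. SYN1 held the cyclic AMP response element, found in 1.98% of promoters. None of the 7 windows held the tandem GGAAGGAA of EWS-FLI1 sites (3.58% of promoters) or TATAAA (12%). These are exact matches of letters, so near variants of each motif were not counted, and binding was not measured.

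Libraries held 38568983 to 65547726 reads. The entry that joins DHX9 with its neighbour NPL was lower in siDHX9 libraries by 0.66 ± 0.07 SE on the log2 scale (limma adjusted p = 4.54e-05), which checks the transfection labels. Ribosomal RNA entries took 7.9 to 9.98% of reads in YK-4-279 libraries against 4.95 to 5.44% in DMSO, and 1.76 to 3.59% in siDHX9 against 3.52 to 5.2% in scrambled libraries. The stress gene CHAC1, named after its values were seen, was at 5052, 8311 and 720.2 normalised counts in scrambled replicates 1, 2 and 3. It was at 131.3 to 358.2 in DMSO, 188.1 to 378.0 in YK-4-279 and 158.2 to 565.9 in siDHX9 libraries, so for CHAC1 scrambled replicate 3 was also above these. The stress gene TRIB3 was at 5115, 2804 and 2262 in scrambled replicates 1, 2 and 3, against 1807 to 2472 in siDHX9 libraries. A further stress gene, DDIT3, was at 378.7, 319.0 and 128.7, against 128.6 to 142.7. For TRIB3 and DDIT3 scrambled replicate 3 thus lay inside the siDHX9 range. Because scrambled replicates 1 and 2 were the highest, results are also given without them. Over all genes, however, replicate 1 was closer to replicate 3 than to replicate 2. The chi-square of read counts over its degrees of freedom was 39.4 between replicates 1 and 2, 30.7 between 1 and 3 and 41.5 between 2 and 3. By that measure siDHX9 replicate 2 was the farthest from its group, at 65.7 and 92.8 against replicates 1 and 3, which were at 29.6 from each other. Of 8 Ewing sarcoma markers all were kept, and the sympathetic neuron markers TH, DBH and PHOX2A were not, with DBH at 0. Of 6 general neuron markers RBFOX3 and MAP2 lay below the minimum. The summed level of the list was 19200 to 21575 in YK-4-279 against 14539 to 16699 in DMSO, and 20013 to 34518 in siDHX9 against 12715 to 14762 in scrambled libraries. Most of this sum was TUBB3, at a mean of 17249 over the 12 libraries. With YK-4-279 no kept neuron marker passed the threshold (limma adjusted p 0.166 to 0.927). With siDHX9 TUBB3 and INA passed it (0.00182 and 9.09e-06), and ELAVL3 and ELAVL4 did not (0.271 and 0.974). The ELAVL3 entry is joined with ZNF653, and ELAVL4 averaged only 24.6 normalised counts over the 12 libraries. The summed level of 7 fibroblast markers was 2521 to 2718 in YK-4-279 against 2289 to 2386 in DMSO, and 3264 to 3758 in siDHX9 against 2485 to 3045 in scrambled libraries. Of the kept fibroblast markers, only LUM was fitted lower with YK-4-279 (log2 −0.49) and only PDGFRB with siDHX9 (−0.65). THY1 passed the threshold as higher with YK-4-279 (limma adjusted p = 0.00743). DCN, THY1 and COL1A1 passed it as higher with siDHX9 (0.00546, 0.00322 and 0.0413), and the remaining kept ones did not pass. The part of these markers in the results, and that of the ribosomal RNA share, was not tested. Only 2 of 6 glial, 1 of 3 epithelial and 1 of 4 leukocyte markers were kept, the last being CD68, in an entry joined with SENP3 and EIF4A1.

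With YK-4-279, 3 of the 10 genes were higher than in DMSO at an adjusted p under 0.05 (SYP, NSG2 and AP3B2) and none was lower. Of all tested genes 13.8% passed this threshold, 7.33% as higher and 6.49% as lower. In siDHX9 against scrambled libraries, the contrast that chose the genes, all 10 were fitted higher. Their median log2 difference was 0.34 with YK-4-279 and 1.68 with siDHX9, beside 0.02 and −0.00 over all tested genes. Here and below, differences are on the log2 scale after adding 1 to each normalised count, with the SE of a fit over all 12 libraries, and every adjusted p is a two-sided limma value with Benjamini-Hochberg adjustment over the 14225 genes. In such bulk libraries, fewer cells with a gene on and less of its RNA per cell cannot be told apart.

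**Figure D1:**
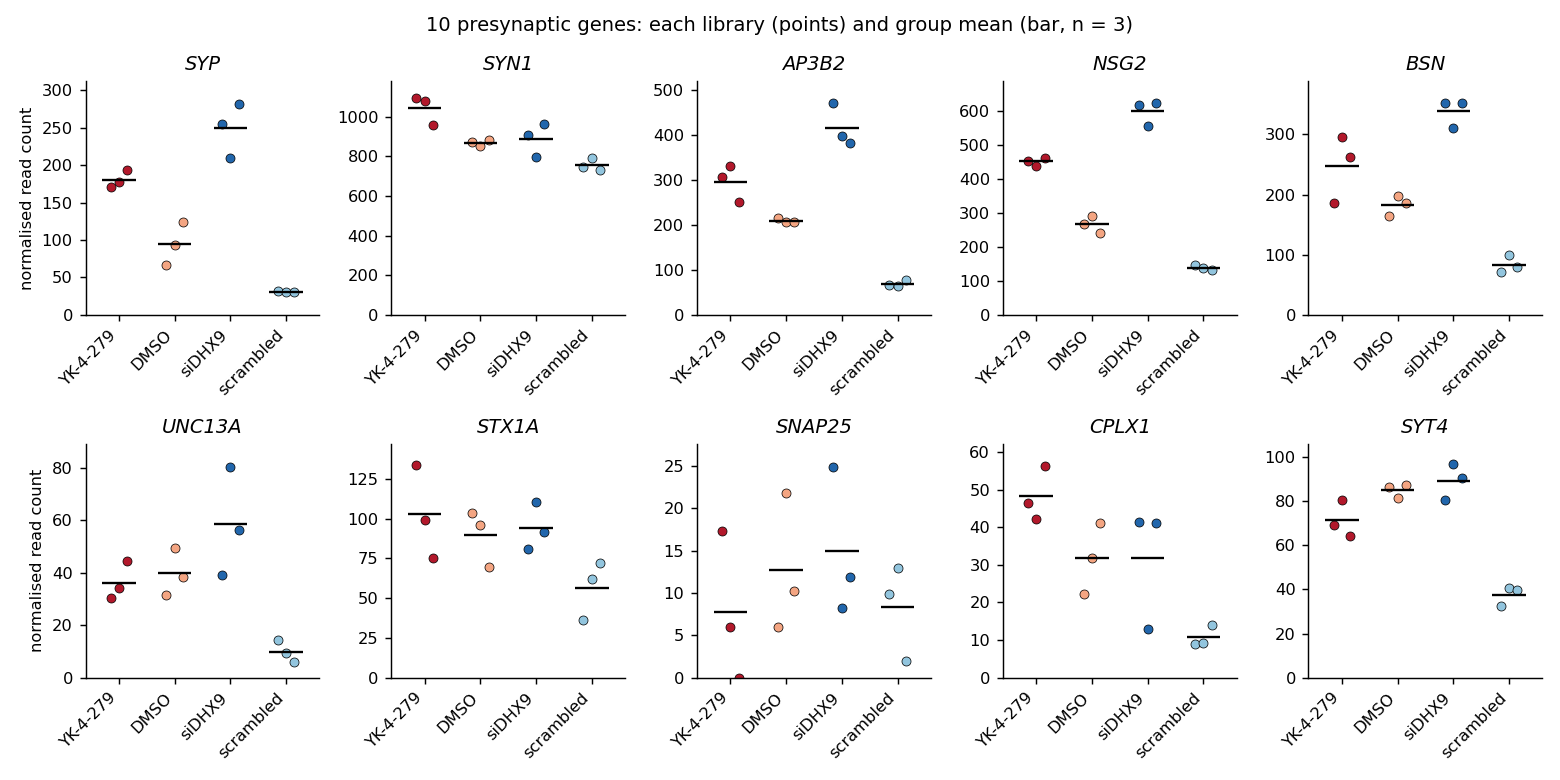
Normalised read counts (vertical axis, from 0) of the 10 genes in each of 12 libraries (points; bars are group means, n = 3), by group from YK-4-279 at the left to scrambled at the right. The scrambled group holds the lowest mean for 9 of the 10 genes, and SNAP25 and STX1A overlap between all groups that are neighbours in the order of their means.

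Both genes of the vesicle membrane were fitted higher with YK-4-279, and SYP passed the test. SYP (GSHG0032093, chromosome X, 49044265 to 49056661, hg19) encodes synaptophysin, a membrane protein that is the standard marker of synaptic vesicles. It had 171, 178 and 193 normalised counts in YK-4-279 libraries, against 67.2, 93.3 and 125 in DMSO. Every drug library lay above every DMSO library, and the DMSO libraries were spread more widely than the drug libraries. SYP averaged 181 ± 11.6 with YK-4-279 and 95 ± 28.7 in DMSO (± SD of n = 3), a 1.95-fold higher level (log2 0.96 ± 0.21 SE, adjusted p = 0.00852). It was above 97.9% of all tested genes in this difference. In siDHX9 libraries SYP was at 256, 209 and 282, against 31.6, 30.5 and 29.9 in scrambled libraries. The scrambled values were the lowest of the 4 groups and nearly equal to one another, and the siDHX9 values the highest. That difference was 2.97 ± 0.21 SE on the log2 scale, or 3.0 without scrambled replicates 1 and 2.

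SYN1 (GSHG0032067, chromosome X, 47431300 to 47479256) encodes synapsin I, which ties vesicles to each other and to actin in the reserve pool. It held 1096, 1079 and 959 normalised counts in YK-4-279 libraries and 872, 851 and 882 in DMSO. The groups did not overlap, and the difference was small, 0.26 ± 0.10 SE on the log2 scale, at an adjusted p of 0.0819 (95% interval of the difference 0.06 to 0.47). That adjusted p was 0.0223 with only the 6 drug and DMSO libraries in the fit and 0.0471 without siDHX9 replicate 2. SYN1 was at 908, 796 and 966 in siDHX9 libraries, against 747, 792 and 729 in scrambled libraries. The siDHX9 group lay just above the scrambled group with no overlap, by 0.23 ± 0.10 SE, the smallest such difference among the 10 genes.

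The SYN1 entry spans the whole of TIMP1, an inhibitor of metalloproteases on chromosome X (47441690 to 47446189) that lies inside a SYN1 intron, and it touches ARAF. TIMP1 averaged 67007 ± 5147 normalised counts with YK-4-279 and 48266 ± 4613 in DMSO, and 51688 ± 11655 in siDHX9 and 36975 ± 2838 in scrambled libraries (± SD of n = 3). TIMP1 itself was higher with YK-4-279 (log2 0.48 ± 0.13 SE, adjusted p = 0.0319) and with siDHX9 (0.46 ± 0.13, adjusted p = 0.0328). The normalised count of SYN1 was 1.46 to 2.09% of that of TIMP1 in each library, and the log2 values of both entries had a Pearson r of 0.95 over the 12 libraries, which share their depth and scaling. The sources used here do not say whether counting used strand, so reads of SYN1 and TIMP1 may not be told apart, and the level of SYN1 is uncertain to that extent.

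**Figure D2:**
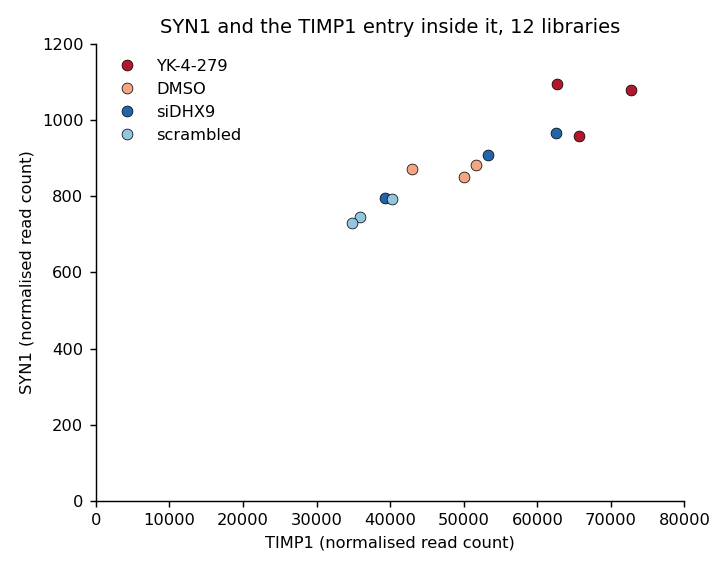
Normalised read count of SYN1 (vertical axis) against that of the TIMP1 entry inside it (horizontal axis), 1 point for each of 12 libraries, both axes from 0. SYN1 is between 729 and 1096 while TIMP1 is between 34872 and 72700, and the YK-4-279 libraries are at the upper right.

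The vesicle trafficking genes were both higher with YK-4-279. AP3B2 (GSHG0010666, chromosome 15, 83328034 to 83378660) encodes the neuronal beta subunit of adaptor complex AP-3, which sorts cargo into vesicles that bud from endosomes. It had 306, 331 and 251 normalised counts with YK-4-279, against 215, 206 and 207 in DMSO. All drug libraries were above all DMSO libraries, which lay close together. AP3B2 averaged 296 ± 40.9 with YK-4-279 and 209 ± 5.07 in DMSO (± SD of n = 3), 1.4-fold higher (log2 0.49 ± 0.14 SE, adjusted p = 0.0372). That call was lost when YK-4-279 replicate 1 or 2 or any DMSO library was left out (adjusted p 0.0936 to 0.157) and with no minimum level (0.0595), over a range of 0.0146 to 0.157 in 22 alternatives. In siDHX9 libraries AP3B2 was at 469.7, 397 and 382, against 65.8, 64.7 and 77.8 in scrambled libraries. The groups were far apart, by 2.56 ± 0.14 SE, or 2.4 without scrambled replicates 1 and 2. The antisense entry CPEB1-AS1, which overlaps AP3B2, averaged 5.58 normalised counts.

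NSG2 (GSHG0024482, chromosome 5, 173472607 to 173536181) encodes a small membrane protein of neuronal endosomes and vesicles. It had 454, 438 and 462 normalised counts with YK-4-279 and 269, 290.0 and 241 in DMSO. The libraries of each group were close and the groups well apart. NSG2 averaged 452 ± 12.2 with YK-4-279 and 267 ± 24.3 in DMSO (± SD of n = 3), 1.7-fold higher (log2 0.76 ± 0.11 SE, adjusted p = 0.000839), the lowest adjusted p among the 10 genes. SYP and NSG2 passed the threshold in all 22 alternatives, with adjusted p values of 0.00041 to 0.0422 for SYP and 3.75e-08 to 0.00629 for NSG2. NSG2 was at 619, 556 and 625 in siDHX9 libraries, against 148, 137 and 132 in scrambled libraries. The scrambled libraries were again the lowest and the siDHX9 libraries the highest, a difference of 2.10 ± 0.11 SE, or 2.18 without scrambled replicates 1 and 2.

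Neither active zone gene passed the test with YK-4-279. BSN (GSHG0020807, chromosome 3, 49591921 to 49708986) encodes bassoon, a giant scaffold protein of the active zone. It had 186, 296 and 263 normalised counts with YK-4-279 and 164, 198 and 186 in DMSO. YK-4-279 replicate 1 lay inside the DMSO range and the other drug libraries above it. The difference was 0.42 ± 0.18 SE (adjusted p = 0.14, 95% interval 0.03 to 0.80), and without YK-4-279 replicate 1 it was 0.61, at an adjusted p of 0.0473. BSN was at 353, 311 and 352 in siDHX9 libraries, against 71.2, 99 and 78.8 in scrambled libraries. These groups did not overlap, and they differed by 2.03 ± 0.18 SE, or 2.09 without scrambled replicates 1 and 2.

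UNC13A (GSHG0015616, chromosome 19, 17712137 to 17799412) encodes Munc13-1, which primes docked vesicles by opening syntaxin. It had 30.3, 34.2 and 44.3 normalised counts with YK-4-279 and 31.3, 49.6 and 38.5 in DMSO. The ranges overlapped almost entirely, and the difference of −0.13 ± 0.36 SE had an adjusted p of 0.848 and a 95% interval of −0.89 to 0.64. In siDHX9 libraries UNC13A was at 39.3, 80.5 and 56.2, against 14.4, 9.25 and 5.99 in scrambled libraries. The siDHX9 libraries varied more than 2-fold among themselves and all lay above the scrambled libraries, by 2.47 ± 0.36 SE. UNC13A rested on 106 and 122 reads over the 3 YK-4-279 and the 3 DMSO libraries, and on 178 and 32 reads over the 3 siDHX9 and the 3 scrambled libraries. Its difference between siDHX9 and scrambled libraries was 3.03 without scrambled replicates 1 and 2 and 1.77 when 10 instead of 1 was added before the logarithm.

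None of the 3 genes of the SNARE machinery passed the test with YK-4-279. STX1A (GSHG0028269, chromosome 7, 73113535 to 73134017) encodes syntaxin 1A, the SNARE of the presynaptic plasma membrane. It had 134, 99.5 and 75.6 normalised counts with YK-4-279 and 104, 96.3 and 69.3 in DMSO. The ranges overlapped, with a difference of 0.18 ± 0.28 SE (adjusted p = 0.711, 95% interval −0.42 to 0.78). STX1A was at 80.7, 111 and 91.9 in siDHX9 libraries, against 36.1, 62 and 71.8 in scrambled libraries. The siDHX9 group lay above the scrambled group, whose replicate 1 was the lowest of all, by 0.77 ± 0.28 SE, or 0.38 without scrambled replicates 1 and 2. The entry overlaps BUD23, a methyltransferase gene with a mean of 5873 normalised counts, of which STX1A had 0.645 to 2.34% in each library. BUD23 differed by 0.10 ± 0.08 SE with YK-4-279 (adjusted p = 0.455) and by 0.08 ± 0.08 SE with siDHX9 (adjusted p = 0.538), and the Pearson r of both entries over the 12 libraries was 0.22.

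SNAP25 (GSHG0018566, chromosome 20, 10199446 to 10288067) encodes the SNARE that contributes a pair of helices to the fusion complex. It had 17.3, 6.03 and 0 normalised counts with YK-4-279 and 5.97, 21.9 and 10.3 in DMSO. Values were near the level of a few reads and the ranges overlapped: 22 reads fell on SNAP25 over the 3 YK-4-279 libraries and 38 over the 3 DMSO libraries, and the 0 in YK-4-279 replicate 3 allows a level of up to 3.02 (3 reads, counting error only). The fitted difference of −1.27 ± 0.93 SE had an adjusted p of 0.393 and a 95% interval of −3.27 to 0.73, so a difference was not detectable at this depth. Without 1 of these 6 libraries it was between −2.20 (without YK-4-279 replicate 1) and −0.10 (without YK-4-279 replicate 3), and −0.41 when 10 was added before the logarithm. In siDHX9 libraries SNAP25 was at 24.8, 8.23 and 11.9, against 9.92, 12.9 and 2 in scrambled libraries, from 44 and 27 reads. These ranges overlapped too, with a fitted difference of 0.92 ± 0.93 SE that was 2.28 without scrambled replicates 1 and 2.

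CPLX1 (GSHG0023054, chromosome 4, 778744 to 819945) encodes complexin 1, which binds assembled SNAREs and holds them until calcium enters. It had 46.5, 42.2 and 56.4 normalised counts with YK-4-279 and 22.4, 31.8 and 41.1 in DMSO. The groups did not overlap, but the highest DMSO library came within about 1 normalised count of the lowest drug library, and the difference of 0.62 ± 0.42 SE had an adjusted p of 0.345 (95% interval −0.27 to 1.52). CPLX1 was at 41.4, 12.8 and 41.1 in siDHX9 libraries, against 9.02, 9.25 and 14 in scrambled libraries. The library of siDHX9 replicate 2 fell within the scrambled range while the others were about as high as the highest DMSO library. The difference was 1.33 ± 0.42 SE, or 1.87 without siDHX9 replicate 2. It was smaller, at 0.96, without scrambled replicates 1 and 2, and 0.92 when 10 was added before the logarithm.

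SYT4 (GSHG0014273, chromosome 18, 40847859 to 40857615) encodes synaptotagmin 4, a synaptotagmin of vesicles and dense core granules that, unlike the fast sensors, binds calcium weakly. It had 69.2, 80.4 and 64.5 normalised counts with YK-4-279 and 86.5, 81.4 and 87.3 in DMSO. SYT4 was the one gene of the 10 with every drug library below every DMSO library, by a margin of about 1 normalised count between the nearest libraries. The difference of −0.26 ± 0.18 SE had an adjusted p of 0.383 (95% interval −0.65 to 0.14). In siDHX9 libraries SYT4 was at 80.7, 97 and 90.8, against 32.5, 40.7 and 39.9 in scrambled libraries. The siDHX9 values lay around the DMSO range, 1 below and 2 above it, and the scrambled values below all other libraries, a difference of 1.23 ± 0.18 SE, or 1.14 without scrambled replicates 1 and 2.

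Over the 10 genes, 5 had all 3 YK-4-279 libraries above all 3 DMSO libraries, against 23.2% of all tested genes, and SYT4 had all below, against 20.4%. In siDHX9 libraries 8 lay above all scrambled libraries, against 14.9%, and CPLX1 and SNAP25 overlapped. Without siDHX9 replicate 2 the 10 differences were 0.31 (SYN1) to 3.09 (SYP). The scrambled group held the lowest mean for 9 of the 10 genes, and for SNAP25 the YK-4-279 group did. The siDHX9 group held the highest mean for 7, and the YK-4-279 group for CPLX1, STX1A and SYN1. SYP, BSN, AP3B2 and NSG2 had the same order, with siDHX9 highest, then YK-4-279, DMSO and scrambled. All neighbouring groups in that order were separate for SYP, AP3B2 and NSG2, and for BSN YK-4-279 and DMSO overlapped.

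The scrambled libraries were below DMSO in most of these genes. All 10 were fitted lower in scrambled than in DMSO libraries, with a median log2 difference of −1.15 beside 0.02 over all tested genes, and 8 had every scrambled library below every DMSO library, against 18.8% of all genes. The differences were −1.96 for UNC13A, −1.58 for AP3B2, −1.56 for SYP, −1.46 for CPLX1, −1.16 for SYT4, −1.14 for BSN, −0.93 for NSG2 and −0.20 for SYN1, with STX1A (−0.69) and SNAP25 (−0.66) overlapping. Against the same DMSO libraries the siDHX9 group was wholly higher for 4 genes, SYP (1.41 ± 0.21 SE), NSG2 (1.17 ± 0.11 SE), AP3B2 (0.98 ± 0.14 SE) and BSN (0.89 ± 0.18 SE), against 18.3% of all genes, and overlapped with DMSO for the other 6. SYT4 and SYN1 were nearest to DMSO, at 0.07 ± 0.18 SE and 0.03 ± 0.10 SE. These contrasts share the DMSO libraries, and the scrambled libraries set against DMSO are also those set against siDHX9. The genes were chosen with that last contrast known, which can favour genes that are low in scrambled libraries. Transfected and untransfected cells differ in transfection and in time, 48 h against 16 h, and these cannot be told apart.

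**Figure D3:**
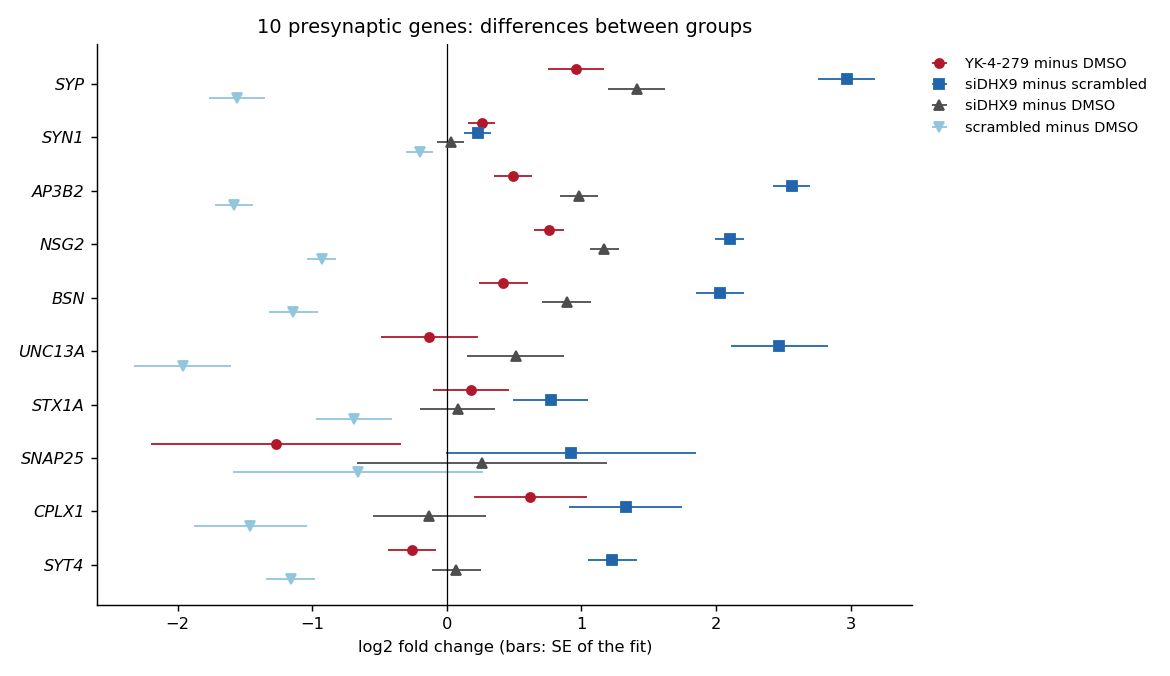
Log2 difference (horizontal axis; bars are the SE of the fit) of the 10 genes (rows) in YK-4-279 minus DMSO, siDHX9 minus scrambled, siDHX9 minus DMSO and scrambled minus DMSO. The siDHX9 minus scrambled values reach 2.97 for SYP, all scrambled minus DMSO values are below 0, and SYN1 stays within 0.26 of 0 in all 4.

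The effect of the drug minus the effect of the knockdown was below 0 for 9 of the 10 genes and 0.03 ± 0.14 SE for SYN1, with a median of −1.55 beside 0.03 over all tested genes. It was −2.60 ± 0.50 SE for UNC13A, −2.07 ± 0.20 SE for AP3B2, −2.01 ± 0.29 SE for SYP, −1.61 ± 0.26 SE for BSN, −1.49 ± 0.26 SE for SYT4 and −1.34 ± 0.16 SE for NSG2. For the SNARE genes it was −2.18 ± 1.32 SE for SNAP25, −0.71 ± 0.59 SE for CPLX1 and −0.59 ± 0.40 SE for STX1A. These values contain the contrast by which the genes were chosen and are given without a test.

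The genes did not all vary together. Over the 12 libraries, the 45 pairs of the 10 genes had Pearson r values of −0.06 to 0.97 on the log2 scale, with a median of 0.69, and 15 were over 0.8. The low end came from SNAP25, which had few reads: its pairs were at −0.06 to 0.21. All pairs without SNAP25 were at 0.5 to 0.97. The libraries fall into 4 groups and share their depth and scaling, so these are descriptions. The 10 genes were also chosen with results of the siDHX9 and scrambled libraries known, which can raise the likeness among them. Among all other tested genes, NSG2 was the most like SYP (r = 0.975), followed by CKMT1B (0.969), SOAT2, CKMT1A and CHRNB2 (0.965 each). CKMT1A and CKMT1B, which encode the same mitochondrial creatine kinase, are near-identical copies whose reads cannot be divided with certainty. SOAT2, a cholesterol esterification enzyme, was low, at a mean of 11.7 normalised counts with YK-4-279, 5.67 in DMSO and 24.3 in siDHX9 libraries, and listed at 0 in all scrambled libraries. CHRNB2, a nicotinic receptor subunit, averaged 163.2 with YK-4-279, 49.5 in DMSO, 183.6 in siDHX9 and 15.8 in scrambled libraries. BSN ranked 6 and AP3B2 ranked 7 among 14224 genes in likeness to SYP. UNC13A ranked 145 (r = 0.86), SYT4 276 (0.82), CPLX1 520 (0.77), SYN1 838 (0.72), STX1A 1677 (0.61) and SNAP25 6307 (0.1).

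A wider list of 120 other presynaptic genes was chosen by role, but with earlier results of these data known, which limits its tests. It had 90 genes with a mean of at least 10. Here the drug changed 17, 12 higher and 5 lower, or 18.9% against 13.8% of all genes, and the siDHX9 libraries differed from scrambled in 13, 9 higher and 4 lower, or 14.4% against 16.7% of all genes, 8.75% as higher and 7.97% as lower. The medians were 0.12 with YK-4-279 and 0.04 with siDHX9, beside 0.02 and −0.00 over all tested genes. The drug count was 2 to 6 without any 1 of the 6 drug and DMSO libraries and 26 without siDHX9 replicate 2, and the siDHX9 count was 6, 8 and 7 without scrambled replicate 1, siDHX9 replicate 1 or siDHX9 replicate 3, 22 without siDHX9 replicate 2 and 5 without scrambled replicates 1 and 2. PPFIA3, a liprin of the active zone, and SCAMP5, a vesicle membrane protein, were called in both, each as higher. By role, YK-4-279 gave 5 higher and 4 lower of 26 genes of vesicle formation and trafficking, 2 higher and 1 lower of 9 calcium sensors, 2 higher of 19 active zone genes, 2 higher of 16 SNARE genes and 1 higher of 20 vesicle membrane genes. In siDHX9 libraries the counts were 4 higher and 2 lower of 20 vesicle membrane genes, 2 higher of 9 calcium sensors, 2 higher of 26 trafficking genes, 1 higher of 19 active zone genes and 2 lower of 16 SNARE genes.

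**Figure D4:**
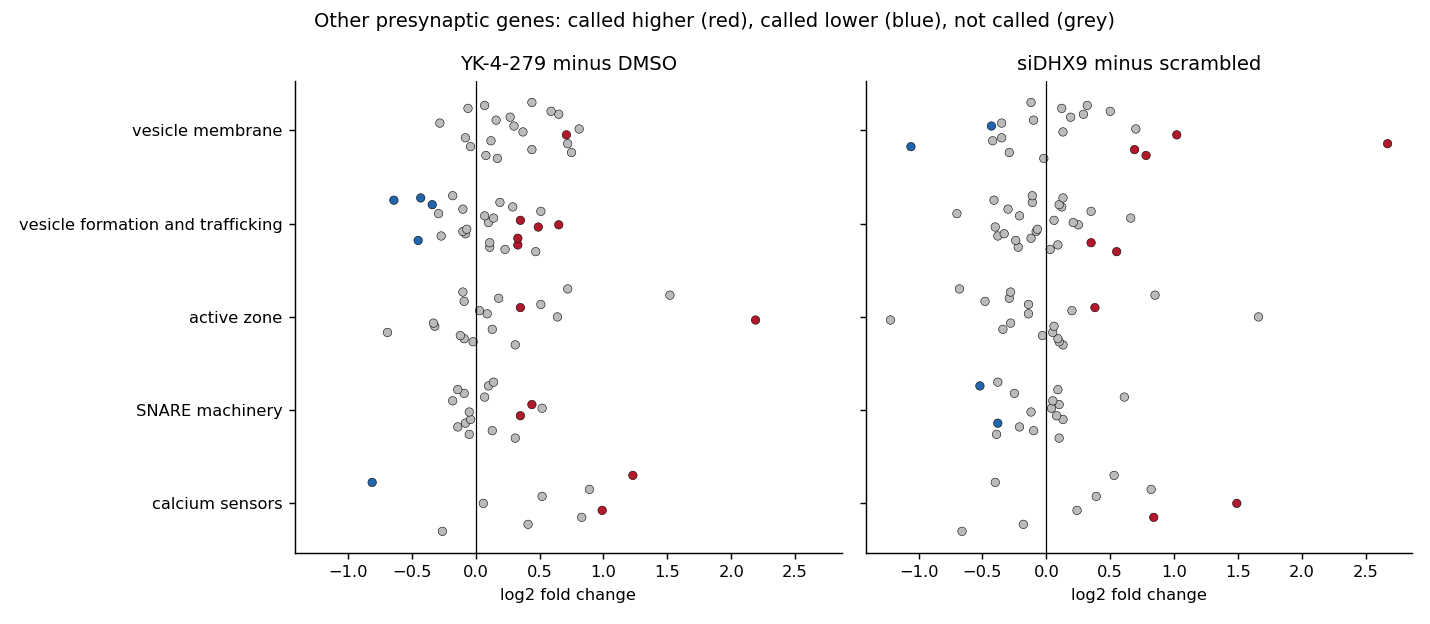
Log2 difference (horizontal axis) of the 90 other presynaptic genes, 1 point each, by role (rows; the height within a row has no meaning), for YK-4-279 minus DMSO at the left and siDHX9 minus scrambled at the right. Red and blue points passed the threshold, 12 higher and 5 lower with YK-4-279 and 9 higher and 4 lower with siDHX9, and most points of every row are grey.

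RAB3C, a vesicle-bound small GTPase and relative of the main vesicle Rab RAB3A, had the largest difference of this list in siDHX9 libraries. It had 109.7, 99.7 and 79.98 normalised counts in siDHX9 libraries and 14.4, 16.6 and 12 in scrambled libraries (log2 2.67 ± 0.24 SE, adjusted p = 1.25e-05). With YK-4-279 it had 51.9, 68.4 and 56.4, against 34.3, 40.7 and 30.8 in DMSO (0.72 ± 0.24 SE, adjusted p = 0.0604). Its 4 groups thus stood in the order seen for SYP, with no overlap between neighbours. SYT2, a fast calcium sensor of release, averaged 471 ± 47.4 in siDHX9 and 167 ± 18.9 in scrambled libraries (± SD of n = 3; 1.49 ± 0.16 SE, adjusted p = 6.94e-05), and 264 ± 52.4 with YK-4-279 and 252 ± 36.7 in DMSO (0.06 ± 0.16 SE, adjusted p = 0.834). For RAB3C and SYT2 the drug effect minus the knockdown effect was −1.94 ± 0.34 SE (adjusted p = 0.0036) and −1.43 ± 0.23 SE (adjusted p = 0.00215). In all, 9 of the 90 genes passed the test of that difference, or 10.0% against 9.69% of all genes, 5 as higher (4.4% of all genes) and 4 as lower (5.29%), and 5 passed without any 1 of DMSO replicate 2, YK-4-279 replicate 1 and scrambled replicate 1.

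On the vesicle membrane, siDHX9 libraries were also higher in SCAMP5, by 1.02 ± 0.21 SE (adjusted p = 0.00573), in DOC2A, by 0.78 ± 0.16 SE (adjusted p = 0.00748) and in RAB3A, by 0.69 ± 0.17 SE (adjusted p = 0.0172). DOC2A binds calcium and phospholipid. The DOC2A entry overlaps INO80E, at a mean of 4728, and the RAB3A entry overlaps MPV17L2, at 2048, so these levels are uncertain. Lower in siDHX9 libraries were RAB3B, a further Rab of secretory vesicles (−1.06 ± 0.26 SE, adjusted p = 0.015), VAMP3, a SNARE of recycling endosomes (−0.52 ± 0.07 SE, adjusted p = 0.000614), SV2A, a vesicle glycoprotein (−0.43 ± 0.13 SE, adjusted p = 0.0356), and SNAP23, the widely expressed relative of SNAP25 (−0.38 ± 0.10 SE, adjusted p = 0.0226). For SV2A the siDHX9 libraries (465 to 561) were above all DMSO libraries (366 to 378), and the scrambled libraries were the highest (633 to 755). For SNAP23 the scrambled libraries (884 to 960) were above DMSO (708 to 819), and siDHX9 (660 to 809) overlapped DMSO. For RAB3B and VAMP3 the siDHX9 libraries were below all DMSO libraries. Without any 1 of scrambled replicate 1 and siDHX9 replicates 1 and 3, RAB3A was not called (adjusted p 0.0615 to 0.0725). SV2A was not called without any 1 of DMSO replicate 2, scrambled replicates 1 and 2 and siDHX9 replicate 3 (0.0512 to 0.125), nor SNAP23 without any 1 of scrambled replicates 1 and 2 and siDHX9 replicates 1 and 3 (0.0621 to 0.0832). With scrambled replicates 1 and 2 both left out, RAB3C, SYT2, RAB3B and VAMP3 were still called (adjusted p 0.000928 to 0.0307), and SCAMP5, DOC2A, RAB3A, SV2A and SNAP23 were not (0.0825 to 0.361).

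Among called genes with at least 50 normalised counts in YK-4-279 libraries, SYT17 and SCAMP5 rose the most with the drug. SYT17, an atypical synaptotagmin, had 121, 104 and 92.7 normalised counts with YK-4-279 and 64.2, 43.7 and 51.4 in DMSO (0.99 ± 0.21 SE, adjusted p = 0.00834). SCAMP5 was higher by 0.71 ± 0.21 SE (adjusted p = 0.0369), CALY, a relative of NSG2, by 0.65 ± 0.19 SE (adjusted p = 0.0389), BIN1, an amphiphysin that bends membranes, by 0.49 ± 0.13 SE (adjusted p = 0.0269), and STXBP2, a Munc18 that binds syntaxins, by 0.44 ± 0.12 SE (adjusted p = 0.0278). Lower were SYT6 (−0.81 ± 0.23 SE, adjusted p = 0.0302), the entry that joins STON1 with GTF2A1L (−0.64 ± 0.18 SE, adjusted p = 0.0308), AP3B1, the widely expressed counterpart of AP3B2 (−0.45 ± 0.11 SE, adjusted p = 0.0191), STON2, an endocytic sorting adaptor (−0.43 ± 0.09 SE, adjusted p = 0.00615), and SH3GL3, an endophilin (−0.34 ± 0.09 SE, adjusted p = 0.0209). SYT17 and STON2 were called in all 12 fits without 1 library. The calls of CALY, STXBP2, SYT6, STON1 and AP3B1 were each lost without any 1 of the 6 drug and DMSO libraries (adjusted p 0.0502 to 0.155). Those of SCAMP5, BIN1 and SH3GL3 were lost without any 1 of 5 of these libraries (0.0513 to 0.154), the exception being DMSO replicate 3 for SCAMP5 and SH3GL3 and DMSO replicate 2 for BIN1.

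Close relatives of the 10 genes were also measured. SYPL1 and SYNPR, relatives of SYP, SYN3 of SYN1, NSG1 of NSG2, PCLO of BSN, UNC13B of UNC13A and SYT11 of SYT4 passed the threshold in neither comparison. With siDHX9 their differences were 0.32 for SYPL1, 0.12 for SYNPR, −0.10 for SYN3, 0.35 for NSG1, 1.66 for PCLO, −0.28 for UNC13B and −0.18 for SYT11 (adjusted p 0.19 to 0.724), of which those of SYNPR, SYN3 and UNC13B turned in sign without 1 or 2 libraries. PCLO averaged only 11.23 normalised counts over the 12 libraries, so its difference is uncertain. The SYN3 entry overlaps TIMP3, at a mean of 132.1 normalised counts, and the NSG1 entry overlaps STX18, at 847.5. AP3B1 fell with YK-4-279 while AP3B2 rose: AP3B1 averaged 1656 ± 54.9 with YK-4-279 and 2269 ± 72 in DMSO (± SD of n = 3). SNAP23 fell with siDHX9, and CALY rose with YK-4-279. SYN2 and CPLX2, relatives of SYN1 and CPLX1, lay below the minimum, at means of 4.18 and 3.32 normalised counts over the 12 libraries. The vesicular glutamate transporter SLC17A6, the monoamine transporter SLC18A1 and the synaptotagmin SYT10 were at 0 in all 12 libraries, while the further glutamate transporter SLC17A7 and the acetylcholine transporter SLC18A3 averaged 308.2 and 837.6, and RIMS1, an active zone organiser, averaged 0.18.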

How the data were processed

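RNA of TC-71 cells was sequenced in 12 libraries. The authors deposited 1 signal value per gene entry and library, a read count that, per the file headers, was scaled by DESeq. The submitters' processing notes name STAR 2.4.0, SAMtools, Picard, FastQC and DESeq, and build hg19, without order or settings. Each column was a multiple of 1 step, so that 100% of values came out as whole reads (tolerance 0.1), though in 4 columns the step is close to 1, and these reads served for depth (38568983 to 65547726 per library), edgeR 4.0.16 and DESeq2 1.42.0. They bound counting error only. Entries without a gene symbol, which hold 3.91 to 4.9% of reads, were left out of the tests.

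Named entries with a mean of at least 10 were fitted as log2(value + 1) with limma 3.58.1 in R 4.3.3 (1 mean for each of 4 groups, trended variance, 8 residual degrees of freedom). A gene was called at an adjusted p under 0.05. The fit was tested on simulated data. Intervals are 95% intervals of the moderated fit.

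The 10 genes, the list of other presynaptic genes and the markers were chosen with earlier results of these data known. Of the other presynaptic genes the text names close relatives of the 10 and, for each comparison and direction, up to 5 called genes with the largest change, no overlap of groups and, in the group that is higher, 50 or more normalised counts on average. PPFIA3, RIMS1, SLC17A6, SLC18A1, SLC17A7, SLC18A3, SYT10 and the stress genes CHAC1, TRIB3 and DDIT3 fall outside that rule. Alternatives were added values of 0.5 and 10, no minimum and a minimum of 50, TMM, the 6 libraries of a comparison alone, edgeR, DESeq2, a replicate block, each library left out, and scrambled replicates 1 and 2 left out together.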

Additional observations from a re-analysis of the deposited data

How the results depend on the processing

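Over 22 alternatives, 2 to 4 of the 10 genes were called with YK-4-279, beside 3. Fitted on the 6 libraries of a comparison alone, 4270 genes in place of 1965 were called with YK-4-279 and 492 in place of 2378 in siDHX9 libraries, and of the other presynaptic genes 34 and 4 in place of 17 and 13. Without 1 library, the calls over all genes ranged from 858 to 2795 with YK-4-279 and from 1244 to 4255 in siDHX9 libraries, and the other presynaptic genes called ranged from 2 to 26 with YK-4-279, from 6 to 22 in siDHX9 libraries and from 5 to 11 in the difference of both effects. Without scrambled replicates 1 and 2, which leaves 1 scrambled library that is assumed to vary like the other groups, 469 genes were called in siDHX9 libraries, among them 5 other presynaptic genes, and 3 in the difference of both effects. No minimum gave 10 other presynaptic genes with YK-4-279, and DESeq2 gave 20 in siDHX9 libraries. Without 1 library, signs turned with YK-4-279 for UNC13A (−0.28 to 0.04, turned without DMSO replicate 2), STX1A (−0.03 to 0.38, without YK-4-279 replicate 1), PCLO (−0.02 to 1.15, without DMSO replicate 2) and UNC13B (−0.21 to 0.05, without YK-4-279 replicate 2), and in siDHX9 libraries for SYN3 (−0.24 to 0.00, without siDHX9 replicate 1) and SYNPR (−0.08 to 0.28, without scrambled replicate 2 and siDHX9 replicate 2). Without scrambled replicates 1 and 2, SYN3 (0.03) and UNC13B (0.05) turned in siDHX9 libraries. The cause was not tested. A low count limits SNAP25, UNC13A, CPLX1 and PCLO.

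Replicate numbers gave little sign of pairing. The deviations of libraries with the same number had r of 0.12, 0.05 and −0.01 between YK-4-279 and DMSO and 0.05, 0.06 and 0.08 between siDHX9 and scrambled. Those with different numbers had r of −0.14 to 0.08 and of −0.09 to 0.04. With 3 libraries in each group these values cannot show that no pairing existed. With the replicate number as a block, 1601 genes were called with YK-4-279 and 2118 in siDHX9 libraries, and with YK-4-279 2 of the 10 genes and 9 other presynaptic genes, 4 higher and 5 lower in place of 12 and 5. AP3B2 had an adjusted p of 0.0579 in that fit.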
